A study of Mus musculus with 14 samples.

Results

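RNA levels of 7 genes whose products mark the surface of mouse embryonic stem (ES) cells were followed through inhibition of the kinase mTOR and compared between wild-type and *Tet1/2* double-knockout (DKO) cells. The genes were *Alpl*, *Fut4*, *Fut9*, *Pecam1*, *Cd9*, *Epcam* and *Cdh1*. They were picked by name, each matched exactly 1 gene identifier, and together they make 7 of the 54446 gene identifiers measured in the 14 libraries. E14 mouse ES cells were grown without feeders on gelatin in serum with LIF. They were collected before treatment (0 h) and after 24, 72 and 144 h of mTOR inhibition (mTORi). The study's methods name INK128 or RapaLink-1 as the inhibitor, and its RNA-seq methods do not say which was used. Cells labelled *Tet1/2* DKO, an E14 derivative raised from single sorted cells after Cas9 deletion of both genes, were collected at 0, 24 and 72 h of the same treatment. Each of the 7 groups held 2 replicates. Genotype and clonal origin cannot be told apart in this design, and no DKO library at 144 h was analysed here. The study stained the cells for alkaline phosphatase activity and measured SSEA1 by flow cytometry. It reports that DKO colonies lost alkaline phosphatase staining under mTORi. It also reports that SSEA1 rose in wild type under mTORi and diverged from this in DKO starting at 72 h. The values below ask how the RNA of the genes behind those assays behaved. RNA levels measure neither enzyme activity nor surface glycan.

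*Alpl* encodes tissue-nonspecific alkaline phosphatase, a phosphate-releasing enzyme anchored to the outer membrane whose activity is the classical histochemical stain for mouse ES colonies. SSEA1 is not a protein but the Lewis X trisaccharide, which is finished when an α1,3-fucosyltransferase adds fucose from GDP-fucose to an N-acetyllactosamine chain, and *Fut4* and *Fut9* encode enzymes that can make this link. *Cd9* encodes a tetraspanin, a multi-span membrane protein that gathers integrins and immunoglobulin-domain partners into membrane patches. *Epcam* and *Cdh1* (E-cadherin) encode epithelial adhesion proteins that hold ES colonies together, the second through β-catenin and α-catenin. *Pecam1* (CD31) encodes an immunoglobulin-family adhesion molecule that mouse ES cells share with endothelium.

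The promoters of the 3 members on which the time-course results turn most are shown so that the genes can be placed in the genome. Each is the RefSeq window on GRCm38.p6 (mm10) around an annotated start, 300 bases in all, read 5′ to 3′ on the strand of the gene. Capitals mark CACGTG, the E-box core, and GGGCGG or its reverse complement CCGCCC, the GC box. *Alpl* has 2 such starts on the minus strand, an upstream one at chr4:137796335-137796634 and an inner one at chr4:137766426-137766725. *Cd9* starts on the minus strand at chr6:125494711-125495010 and *Epcam* on the plus strand at chr17:87635729-87636028.
Alpl upstream: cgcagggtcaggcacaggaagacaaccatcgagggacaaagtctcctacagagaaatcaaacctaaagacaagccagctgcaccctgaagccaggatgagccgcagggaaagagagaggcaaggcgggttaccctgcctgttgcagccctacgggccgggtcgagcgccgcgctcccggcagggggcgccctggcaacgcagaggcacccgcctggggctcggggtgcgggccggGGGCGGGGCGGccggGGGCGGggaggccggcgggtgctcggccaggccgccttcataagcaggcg
Alpl inner: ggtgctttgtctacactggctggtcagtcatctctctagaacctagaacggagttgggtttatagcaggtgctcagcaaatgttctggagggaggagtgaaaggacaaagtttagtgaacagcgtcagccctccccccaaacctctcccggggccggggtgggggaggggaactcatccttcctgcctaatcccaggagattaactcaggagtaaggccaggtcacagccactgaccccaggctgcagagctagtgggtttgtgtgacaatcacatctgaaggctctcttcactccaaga
Cd9: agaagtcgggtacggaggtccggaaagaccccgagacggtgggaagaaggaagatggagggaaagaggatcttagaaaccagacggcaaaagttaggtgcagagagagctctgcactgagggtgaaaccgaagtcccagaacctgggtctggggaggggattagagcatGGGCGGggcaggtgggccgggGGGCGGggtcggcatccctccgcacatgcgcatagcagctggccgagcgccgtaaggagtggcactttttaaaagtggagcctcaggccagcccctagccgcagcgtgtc
Epcam: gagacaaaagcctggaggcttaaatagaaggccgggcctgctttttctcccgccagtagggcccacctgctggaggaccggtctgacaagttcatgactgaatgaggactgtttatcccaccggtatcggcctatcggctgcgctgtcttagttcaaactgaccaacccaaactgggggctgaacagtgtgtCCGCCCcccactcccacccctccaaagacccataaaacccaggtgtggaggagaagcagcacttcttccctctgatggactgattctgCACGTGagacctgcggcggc

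The upstream *Alpl* window held 26 CpG dinucleotides and 3 GC boxes, 2 of which share a base, and the inner window held 4 CpG and neither motif. The *Cd9* window held 18 CpG and 2 GC boxes. The *Epcam* window held 11 CpG, 1 GC box and 1 E-box. The fourth matched window, that of *Fut4*, held 18 CpG and neither motif. Among all 32851 mouse promoter windows of this table and length, the median was 7 CpG, 7.15% held CACGTG and 35.7% held a GC box on either strand. The TPM values are sums over the transcripts of a gene and do not say which *Alpl* start was used. *Fut9*, *Pecam1* and *Cdh1* had no entry.

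Each library was measured in TPM, length-corrected transcript shares that sum to 1000000 in every library, called plain TPM below. The study took RNA from a set number of sorted cells and used ERCC spike-in RNAs, without stating at which step or to what amount. Multiplying each library by its spike-in factor gives spike-in normalized TPM. This scale also carries the amount of RNA per cell only if the spike-in was added per cell. The factors ran from 1 to 2.81 relative to WT 144 h replicate 2, and both WT 0 h replicates had the same factor, 2.11. All 14 factors equalled 76 divided by a whole number between 27 and 76, to within 0.001 of their value, so they came in steps, of 1.30% to 3.57% per unit of that number. On that scale the median of all genes at 144 h in wild type lay 0.83 log2 units below 0 h, against 0.055 above it in plain TPM, so both scales are given for the members. In bulk RNA, fewer cells of a type and less RNA per cell cannot be told apart. A gene was called changed where limma on log2(TPM + 1), fitted over all 14 libraries, gave a Benjamini-Hochberg adjusted p under 0.05 over 18232 genes, those whose spike-in normalized TPM averaged 1 or more. Fold changes are on that log2 scale, which understates the change of low genes. All members but *Fut4* entered the test. In the DKO libraries *Tet2* lay between 15.9 and 22.2 plain TPM, against 96.0 to 143 in wild type. *Tet1* RNA was only moderately lower, at 147 to 248 against 191 to 349 plain TPM, and on the spike-in scale its levels overlapped between genotypes. Gene-level TPM do not show from which exons these reads came. Total read depth is unknown, since TPM keep no counts. The replicates of DKO 24 h differed most on the spike-in scale, with a mean of 41.1 and 24.9 spike-in normalized TPM. Spike-in differences of the members that use these 2 libraries are given without each, and those of other genes are not.

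*Cdh1*, *Alpl* and *Cd9* were the most abundant of the 7, and *Fut4* was close to absent. Ranked by plain TPM among all genes in each library, *Cdh1* had a median rank of 730.5, *Alpl* 922.5 and *Cd9* 1046. *Epcam* followed at 2167.5, *Pecam1* at 3515.5, *Fut9* at 11414 and *Fut4* at 21217.5. TPM are per transcript length, so these levels can be compared between genes.

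**Figure D1:**
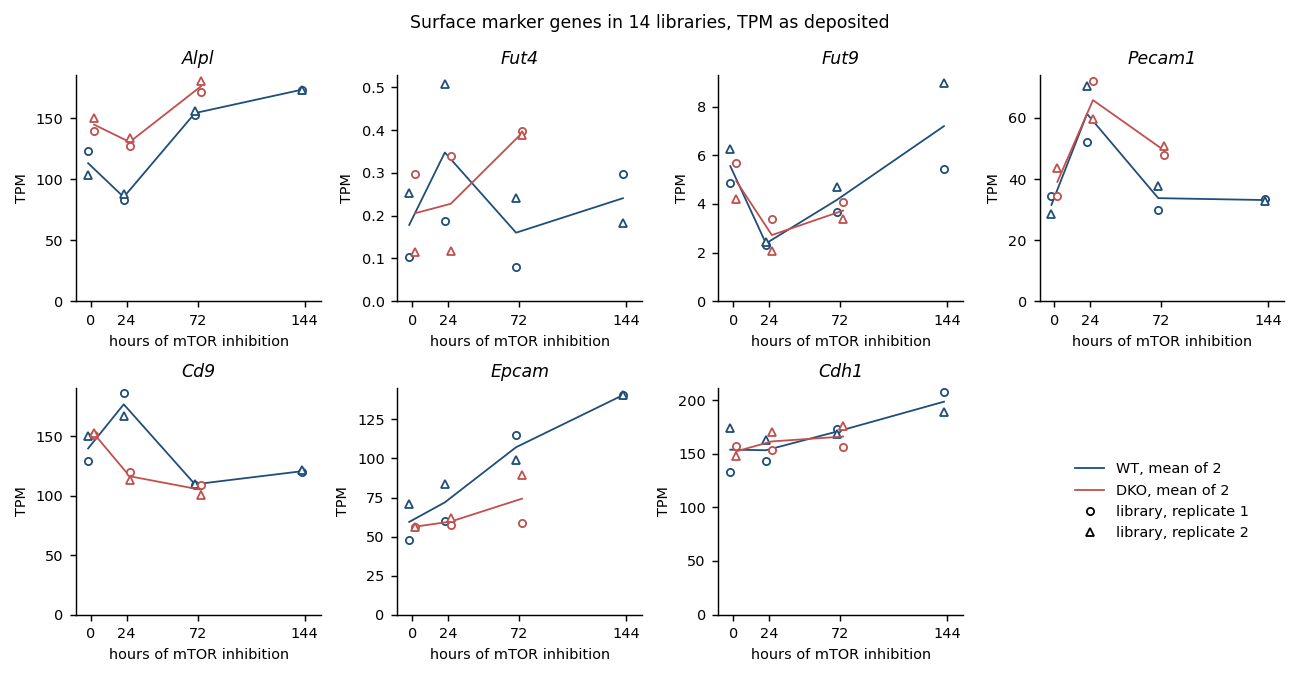
Plain TPM of the 7 genes in each library against hours of mTORi, 1 panel per gene with its own axis from 0, wild type and DKO in separate colours, circles for replicate 1, triangles for replicate 2 and lines through the mean of 2. *Alpl* dips at 24 h in wild type and reaches 173 in both 144 h libraries, *Epcam* climbs to 141 in wild type, and *Fut9* is lowest at 24 h in both genotypes.

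On the spike-in scale, 1 of the 6 tested members was called lower at 24 h in wild type (*Fut9*), where 8.73% of all genes were called lower. At 144 h, 2 of 6 were called lower (*Cd9* and *Pecam1*), where 50.5% of all genes were called lower. In DKO cells 2 of 6 were called lower at 24 h (*Cd9* and *Fut9*) against 18.7% of all genes. None was called at 72 h in either genotype, where 8.29% of all genes in wild type and 3.66% in DKO were called, and 1 member in wild type and 1 in DKO had an unadjusted p under 0.05. Between 72 and 144 h in wild type 0 members were called by limma, also 0 at an unadjusted p under 0.05, with 0.395% of all genes called. With the replicate number as a block within each genotype, 2, 2 and 4 members were called at 24, 72 and 144 h in wild type, beside 30.2%, 28.3% and 67.4% of all genes, and 3 and 1 at 24 and 72 h in DKO, beside 40% and 18.5%.

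In plain TPM more members were called, in both directions. At 24 h in wild type 2 of 6 were higher (*Pecam1* and *Cd9*) and 2 lower (*Alpl* and *Fut9*), with 15.8% and 14.1% of all genes called higher and lower. At 72 h 2 were higher (*Alpl* and *Epcam*) and 1 lower (*Cd9*), against 12.6% and 11.4%. At 144 h 2 were higher (*Alpl* and *Epcam*), against 15.6% of all genes. In DKO cells 1 was higher and 1 lower at each time, *Pecam1* and *Cd9* at 24 h and *Alpl* and *Cd9* at 72 h, where 24.9% and 26.3% of all genes were called in either direction. Between 72 and 144 h 0 were called by limma, with 1 at an unadjusted p under 0.05 and 0.357% of all genes called. *Fut9* at 24 h in wild type and *Cd9* at 24 h in DKO were the members called in the same direction on both scales in these comparisons with 0 h. Without the filter on low values both spike-in calls ended (adjusted p = 0.137 and 0.0866), and that of *Cd9* also ended in a fit of the compared libraries alone (0.236) and in one without the mean-variance trend (0.0527).

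**Figure D2:**
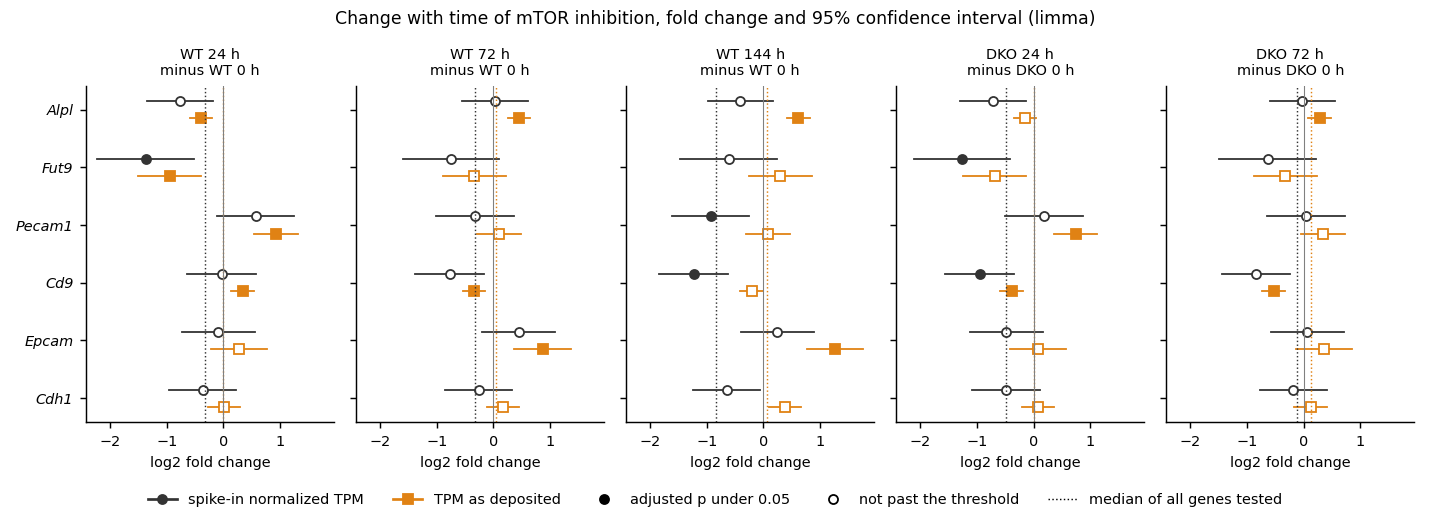
Log2 fold change of each tested gene against 0 h of its own genotype, for wild type at 24, 72 and 144 h and DKO at 24 and 72 h, on both scales, with 95% confidence intervals from the fit. Filled points passed an adjusted p under 0.05 and dotted lines mark the median of all genes, which at 144 h lies at −0.83 on the spike-in scale, so that *Epcam* and *Alpl* stand above it and *Cd9* below it.

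*Alpl* (ENSMUSG00000028766.10, chr4:137741733-137796384, minus strand, up to 12 exons) fell as a share of the RNA during the first day of mTORi in wild-type cells and then rose above its starting level. In plain TPM it measured 123 and 103 in the 2 wild-type replicates at 0 h, 82.9 and 87.8 after 24 h, 152 and 156 after 72 h and 173 and 173 after 144 h. The 4 groups did not overlap, with both 24 h libraries lowest and both 144 h libraries highest. The difference from 0 h was −0.40 (SE 0.090) at 24 h with adjusted p = 0.00777, 0.45 (SE 0.090) at 72 h with 0.00572, and 0.62 (SE 0.090) at 144 h with 0.00111. The 72 h and 144 h calls held without any single library, with adjusted p at most 0.0435 and 0.0132. The 24 h call was lost without WT 0 h replicate 1 (adjusted p = 0.06) and without WT 24 h replicate 1 (0.0535).

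In spike-in normalized TPM the same libraries read 259 and 218 at 0 h, 119 and 163 after 24 h, 252 and 232 after 72 h and 186 and 173 after 144 h. The 24 h libraries again lay below 0 h, the 72 h libraries overlapped 0 h, and the 144 h libraries lay below 0 h instead of above it. None of these differences passed the test: −0.77 (SE 0.28) at 24 h with adjusted p = 0.0814, 0.024 (SE 0.28) at 72 h with 0.971, and −0.41 (SE 0.28) at 144 h with 0.222. With the replicate number as a block within each genotype, since the time points of a replicate were processed in parallel, the 24 h fall passed (adjusted p = 0.0123). It also passed without either replicate of DKO 24 h (0.0224 and 0.0226). The 144 h value stood at the 77.0 percentile of all genes tested on this scale and the 88.9 percentile in plain TPM.

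DKO cells held more *Alpl* RNA than wild type at the matched times. Plain TPM in DKO were 139 and 150.2 at 0 h, 127 and 134 after 24 h and 171 and 181 after 72 h. At 0, 24 and 72 h the 2 DKO libraries exceeded the 2 wild-type libraries without overlap, on both scales. Averaged over them the difference was 0.38 (SE 0.052) with adjusted p = 0.00142 in plain TPM, which held without any single library (at most 0.0066), and 0.65 (SE 0.16) with 0.0178 on the spike-in scale (0.54 and 0.76 without replicate 1 and 2 of DKO 24 h). *Alpl* was the only member called higher in DKO over this mean on either scale, where 8.3% of all genes on the spike-in scale and 11.7% in plain TPM were called higher. The spike-in call of *Alpl* ended without the filter on low values (adjusted p = 0.0614) and when any of 5 libraries was left out, namely WT 0 h replicate 2 (0.0625), WT 24 h replicate 1 (0.07), WT 72 h replicate 2 (0.0683), DKO 0 h replicate 1 (0.0603) and DKO 72 h replicate 1 (0.0736).

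At 24 h alone the genotypes differed by 0.61 (SE 0.090) in plain TPM (adjusted p = 0.0152), a call that leaving out any of the 4 libraries compared ended (0.065 to 0.084), and by 0.70 (SE 0.28) on the spike-in scale (adjusted p = 0.887, 0.38 without DKO 24 h replicate 1 and 1.03 without replicate 2). Within DKO the change from 0 h to 24 h was −0.15 (SE 0.090) in plain TPM (adjusted p = 0.266, −0.094 without DKO 0 h replicate 2) and −0.72 (SE 0.28) on the spike-in scale (adjusted p = 0.0742, and 0.0136 with the replicate block). Without DKO 24 h replicate 1 this spike-in value was −1.04 with adjusted p = 0.00617, and without replicate 2 it was −0.39 with 0.455. At 72 h in DKO *Alpl* was higher by 0.28 (SE 0.090) in plain TPM (adjusted p = 0.0416, lost when any of 10 libraries was left out, up to 0.181) and stood at −0.022 (SE 0.28) on the spike-in scale (adjusted p = 0.978).

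The other alkaline phosphatase genes were at or near 0. *Alpl* made up at least 99.04% of the plain TPM summed over the 4 alkaline phosphatase genes in every library. *Alppl2*, the placental-like paralog, lay between 0 and 0.80 plain TPM, *Akp3*, an intestinal paralog, between 0 and 0.07, and *Alpi* was listed at 0 throughout, so that 0 of these 3 paralogs entered the test. Ordered by plain TPM, the groups ran from DKO 72 h (mean 176 ± 6.77, SD, n = 2) and WT 144 h (173 ± 0.00281), which overlapped, through WT 72 h (154 ± 2.52), DKO 0 h (145 ± 7.66), DKO 24 h (130.5 ± 4.28) and WT 0 h (113 ± 13.6) to WT 24 h (85.4 ± 3.44). No other neighbours in that order overlapped. The spike-in order began with DKO 0 h and DKO 72 h, which overlapped each other, and also ended with WT 24 h.

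Of the 2 members that can finish SSEA1, *Fut9* stood above 1 TPM and *Fut4* below it, and *Fut9* fell on the first day of mTORi in wild type on both scales and in DKO on the spike-in scale. *Fut9* (ENSMUSG00000055373.8, chr4:25609332-25800244, minus strand) measured 4.84 and 6.26 plain TPM in wild type at 0 h, 2.32 and 2.43 after 24 h, 3.67 and 4.68 after 72 h and 5.42 and 8.97 after 144 h. In DKO it measured 5.69 and 4.20, 3.38 and 2.06 and 4.08 and 3.37 at 0, 24 and 72 h. The 24 h libraries were below the 0 h libraries without overlap in both genotypes, while the 144 h libraries overlapped 0 h. Ordered by level over the 7 groups, all neighbours overlapped.

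The 24 h fall of *Fut9* in wild type was −1.37 (SE 0.41) on the spike-in scale with adjusted p = 0.0375 and −0.95 (SE 0.25) in plain TPM with 0.0164. In DKO it was −1.26 (SE 0.41) with adjusted p = 0.0362 and, in plain TPM, −0.69 (SE 0.25) with 0.0699, which the replicate block took to 0.0113. That plain value was −0.95 without DKO 24 h replicate 1 (adjusted p = 0.0488) and −0.43 without replicate 2 (0.312). Without the filter on low values the spike-in calls ended, with adjusted p = 0.137 in wild type and 0.126 in DKO, and in a fit of the compared libraries alone the DKO call ended (0.243). The block left the spike-in calls at 0.000403 and 0.000541. Single libraries carried these calls: the wild-type spike-in call was lost without either replicate of WT 0 h (0.0903 and 0.257), WT 24 h (0.254 and 0.0629) or WT 72 h (0.0585 and 0.0582). The DKO call was lost without DKO 0 h replicate 1 (0.295), DKO 24 h replicate 2 (−0.67, adjusted p = 0.365) or either replicate of WT 72 h (0.0541 and 0.054). Without DKO 24 h replicate 1 it was −1.85 (adjusted p = 0.00197). The plain wild-type call was lost without WT 0 h replicate 2 (0.104), WT 24 h replicate 1 (0.0721) or replicate 2 (0.0643).

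At 144 h the direction depended on the scale. At 72 h *Fut9* stood at −0.75 (SE 0.41) on the spike-in scale (adjusted p = 0.255, 0.0259 with the block) and −0.34 (SE 0.25) in plain TPM (adjusted p = 0.357, −0.50 without WT 0 h replicate 1 and −0.18 without replicate 2, and −0.20 without WT 72 h replicate 1). At 144 h it was −0.62 (SE 0.41) on the spike-in scale (adjusted p = 0.208, 0.03 with the block) but 0.30 (SE 0.25) in plain TPM (adjusted p = 0.405). The 144 h replicates lay far apart, at 5.42 and 8.97, and the plain difference was 0.61 without WT 144 h replicate 1 and −0.020 without replicate 2. The spike-in difference was −0.34 without WT 144 h replicate 1 and −0.89 without replicate 2.

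*Fut4* (ENSMUSG00000049307.6, chr9:14748320-14752393, minus strand, a single exon) stayed between 0.0797 and 0.509 plain TPM in all 14 libraries. Its replicates differed within a group, at 0.187 and 0.509 in WT 24 h and 0.297 and 0.114 in DKO 0 h, and all neighbouring groups overlapped when ordered by level. At 72 h both DKO libraries, at 0.397 and 0.390 plain TPM, lay above both wild-type libraries, at 0.0797 and 0.241, on both scales, and in plain TPM also above both DKO 0 h libraries. *Fut9* exceeded *Fut4* in every library, by a ratio of 4.79 to 48.9 with a median of 18.7, a ratio that does not depend on the scale. In a fit without the filter *Fut4* was not called in any comparison, with adjusted p of at least 0.351 and an unadjusted p under 0.05 in 0 of 12 comparisons on either scale.

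Other fucosyltransferase genes and genes of GDP-fucose supply and of the N-acetyllactosamine chain were also measured, and several were more abundant than *Fut9* and *Fut4*. Among the other 9 fucosyltransferase genes listed, the protein O-fucosyltransferase *Pofut2* was highest, with a median of 20.9 plain TPM over the libraries, followed by the core α1,6-fucosyltransferase *Fut8* at 13.2, *Pofut1* at 11.9, *Fut10* at 6.87, *Fut11* at 3.33 and *Sec1* at 1.67. *Fut7*, another α1,3-enzyme, had a median of 0 and *Fut1* and *Fut2*, both α1,2-enzymes, of 0.0846 and 0.138. *Fut9* had a median of 4.14 and *Fut4* of 0.247. Among the makers of the sugar and the chain the highest were *Tsta3*, the last enzyme of GDP-fucose synthesis, at 45.5, and *B3gnt7*, which extends N-acetyllactosamine chains, at 74.4.

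**Figure D3:**
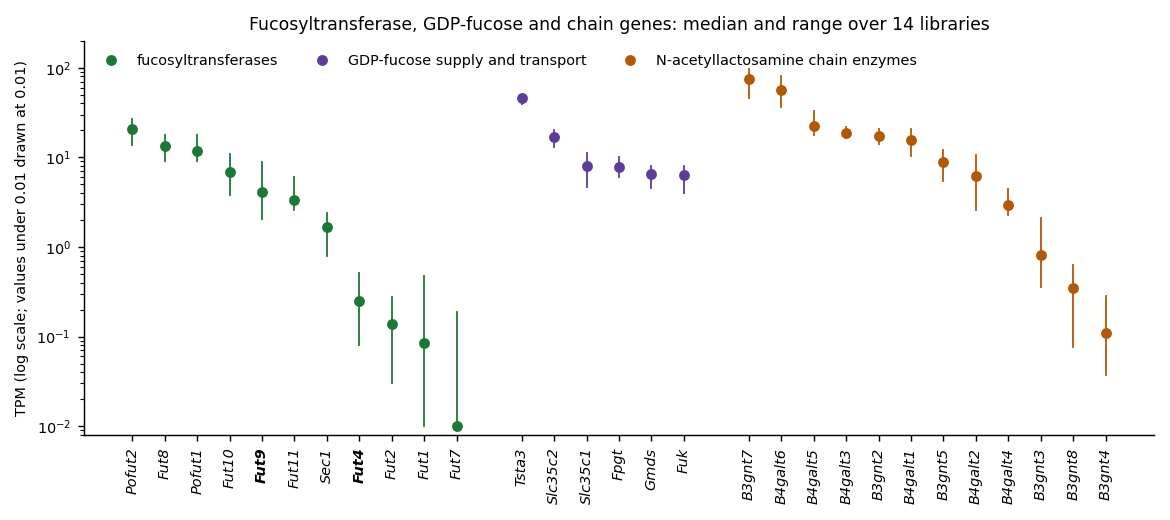
Plain TPM of *Fut4*, *Fut9* and the listed genes of other fucosyltransferases, GDP-fucose supply and N-acetyllactosamine chains on a log axis, with points at the median over 14 libraries and bars from the lowest to the highest library, values under 0.01 drawn at 0.01. *Fut9* has a median of 4.14 and *Fut4* of 0.25, below *B3gnt7* at 74.4 and *Tsta3* at 45.5.

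At 144 h in wild type, 3 of 6 tested fucosyltransferase genes, 3 of 6 GDP-fucose genes and 5 of 10 chain enzymes were called lower on the spike-in scale, with medians of −0.83, −0.75 and −0.83 beside −0.83 for all genes, of which 50.5% were called lower. In plain TPM the medians were 0.15, 0.23 and 0.14, with 1, 0 and 3 genes called lower and 0, 0 and 2 called higher, beside 11.7% and 15.6% of all genes. *Sec1*, *B4galt1* and *B4galt5* were lower on both scales. *Sec1* stood at −1.35 (SE 0.37, adjusted p = 0.00617) on the spike-in scale and −0.59 (SE 0.16, adjusted p = 0.0242) in plain TPM. *B4galt1*, a galactosyltransferase that builds the chain, stood at −1.65 (SE 0.34, adjusted p = 0.00109) and −0.66 (SE 0.15, adjusted p = 0.00852), and *B4galt5* at −1.37 (SE 0.29, adjusted p = 0.00126) and −0.37 (SE 0.10, adjusted p = 0.0206). *B3gnt7* was higher only in plain TPM, at 0.58 (SE 0.13, adjusted p = 0.00881), against −0.44 (SE 0.31, adjusted p = 0.238) on the spike-in scale.

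The kinase of the fucose salvage route, *Fuk*, stood at −1.27 (SE 0.37, adjusted p = 0.00989) on the spike-in scale and −0.33 in plain TPM, where it was not called. The Golgi GDP-fucose transporter *Slc35c1* stood at −0.99 (SE 0.32, adjusted p = 0.0154) and −0.077, *Tsta3* at −0.78 (SE 0.28, adjusted p = 0.0243) and 0.23, *Fut10* at −1.07 (SE 0.34, adjusted p = 0.0149) and −0.17, and *Pofut2* at −0.88 (SE 0.28, adjusted p = 0.016) and 0.12, and none of these was called in plain TPM. *Fuca1*, a lysosomal fucosidase and 1 of 2 fucosidase genes, stood at −1.35 (SE 0.34, adjusted p = 0.00441) and −0.36.

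Between genotypes *Fut9* and *Fut4* were not called at any time or over the mean. Several genes of these lists were higher in DKO over the mean of 0, 24 and 72 h on both scales, with 8.3% of all genes higher on the spike-in scale and 11.7% in plain TPM. *Fut10* stood at 0.89 (SE 0.20, adjusted p = 0.0107) on the spike-in scale and 0.60 in plain TPM. *Gmds*, the first enzyme of GDP-fucose synthesis, stood at 0.79 (SE 0.20, adjusted p = 0.0214) and 0.50, and *Slc35c1* at 0.67 (SE 0.18, adjusted p = 0.0291) and 0.39. *B4galt2* stood at 0.86 (SE 0.24, adjusted p = 0.0316) and 0.57, and *B4galt5* at 0.67 (SE 0.17, adjusted p = 0.0183) and 0.40. These were 1 of 6, 2 of 6 and 2 of 10 tested genes of the 3 lists on the spike-in scale, and 2, 3 and 2 in plain TPM. Their calls are not given with 1 library left out, where the spike-in call of *Alpl* over this mean did not always hold.

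*Cd9* RNA was lower at 72 and 144 h of mTORi than at 0 h in every library, whichever scale was used. *Cd9* (ENSMUSG00000030342.8, chr6:125460266-125494791, minus strand) overlaps 2 genes on the plus strand, *Gm28809* and *Gm26728*, and since it is not stated whether strand was used in the quantification, their reads cannot be told apart from those of *Cd9*. In wild type it measured 129 and 150.2 plain TPM at 0 h, 186 and 167 after 24 h, 109 and 110.0 after 72 h and 119 and 121 after 144 h. Their spike-in normalized TPM read 273 and 317, 267 and 309.8, 180.0 and 164 and 128 and 121. The 24 h libraries stood above 0 h in plain TPM and overlapped it on the spike-in scale, and the 72 h and 144 h libraries lay below 0 h on both. Ordered by plain TPM over the 7 groups, WT 24 h was highest and DKO 72 h lowest, and WT 144 h and DKO 24 h were the neighbours that overlapped.

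At 144 h *Cd9* was −1.23 (SE 0.29) on the spike-in scale (adjusted p = 0.0027), a call that no single library ended (at most 0.0361), and −0.21 (SE 0.090) in plain TPM (adjusted p = 0.114, −0.32 without WT 0 h replicate 1 and −0.099 without replicate 2). Against the median of all genes the spike-in value was −0.40, the 22.2 percentile. At 72 h it was −0.34 (SE 0.090) in plain TPM (adjusted p = 0.0202), which was lost without WT 0 h replicate 2 (0.136) or either WT 72 h replicate (0.0768 and 0.0826). The spike-in value at 72 h was −0.77 (SE 0.29) (adjusted p = 0.1, 0.0107 with the replicate block, and 0.0256 or 0.0258 without replicate 1 or 2 of DKO 24 h). The 24 h rise in plain TPM, 0.34 (SE 0.090) (adjusted p = 0.0169), was lost without WT 0 h replicate 1 or WT 24 h replicate 1 (0.121 and 0.121) and was −0.031 (SE 0.29) on the spike-in scale.

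In DKO cells *Cd9* was lower already at 24 h. Plain TPM were 151 and 153 at 0 h, 119.8 and 113 after 24 h and 109 and 101 after 72 h, and spike-in normalized values were 425 and 363, 268 and 153 and 276 and 174. Both treated groups lay below 0 h on both scales. At 24 h the difference was −0.38 (SE 0.090) in plain TPM (adjusted p = 0.0115) and −0.95 (SE 0.29) on the spike-in scale (adjusted p = 0.0277). The spike-in call was lost in the 3 fits named above and without DKO 0 h replicate 1 (0.211) or replicate 2 (0.0728) and without DKO 24 h replicate 2, where the value was −0.55 with adjusted p = 0.27, against −1.35 with 0.00135 without replicate 1. The plain call was lost without replicate 2 of DKO 0 h or of DKO 24 h (0.0585 and 0.0576). At 72 h it was −0.53 (SE 0.090) in plain TPM (adjusted p = 0.00294, at most 0.0289 with any 1 library left out), and −0.84 (SE 0.29) on the spike-in scale (adjusted p = 0.109, 0.0101 with the block, −1.17 without DKO 72 h replicate 1 and −0.51 without replicate 2, with adjusted p = 0.0265 or 0.0267 without replicate 1 or 2 of DKO 24 h).

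At 24 h the plain TPM of *Cd9* differed between DKO and wild type by −0.60 (SE 0.090) (adjusted p = 0.0162). *Cd9* and *Alpl* were the 2 of 6 members called between genotypes at 24 h in plain TPM, where 1.37% of all genes were called. This *Cd9* call was lost without WT 24 h replicate 1 (0.0937) or either DKO 24 h replicate (0.0649 and 0.0753), and on the spike-in scale the libraries overlapped (−0.51 (SE 0.29), adjusted p = 1, −0.91 without DKO 24 h replicate 1 and −0.10 without replicate 2). The response of *Cd9* at 24 h in DKO minus that in wild type was −0.72 (SE 0.13) in plain TPM and −0.92 (SE 0.41) on the spike-in scale, with adjusted p of 0.326 and 1. The spike-in value was −1.32 without DKO 24 h replicate 1 and −0.52 without replicate 2, and was not called in either case. Over the mean of the 3 times, where 5.66% of all genes were called lower in DKO in plain TPM, *Cd9* differed between genotypes by −0.18 (SE 0.052) in plain TPM (adjusted p = 0.0394, lost when any of 12 libraries was left out) but by 0.087 (SE 0.17) on the spike-in scale (adjusted p = 0.714, −0.047 and 0.22 without replicate 1 and 2 of DKO 24 h).

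Of 18 tested genes of other tetraspanins and *Cd9* partners, 10 were called lower and 0 higher at 144 h on the spike-in scale, where 50.5% of all genes were called lower, with a median of −1.02, while in plain TPM 6 were called higher and 4 lower, beside 15.6% and 11.7% of all genes. *Cd63*, a tetraspanin of endosomes and lysosomes, stood at −1.87 (SE 0.35, adjusted p = 0.000569) on the spike-in scale and −0.86 (SE 0.20, adjusted p = 0.0118) in plain TPM. *Cd37*, a tetraspanin better known from leukocytes, stood at −1.87 (SE 0.32, adjusted p = 0.000339) and −0.87 (SE 0.26, adjusted p = 0.0311). The integrin gene *Itga6*, the most abundant of the list, stood at −0.57 (SE 0.26, adjusted p = 0.0727) on the spike-in scale but 0.46 (SE 0.13, adjusted p = 0.0231) in plain TPM. At 24 h in DKO 7 of 18 were called lower on the spike-in scale and 5 in plain TPM, against 2 and 4 after 24 h in wild type, where 3 were higher in plain TPM. Over all genes the shares called lower were 18.7% and 13.3% for DKO, against 8.73% and 14.1% for wild type. Over the mean of times, 5 of 18 were higher in DKO on the spike-in scale, beside 8.3% of all genes, among them *Cd37* at 1.35 (SE 0.19, adjusted p = 0.000354) and 1.07 in plain TPM. *Tspan7* stood at 0.87 (SE 0.25, adjusted p = 0.0376) and 0.56, and *Igsf8*, an immunoglobulin-domain partner of CD9, at 0.61 (SE 0.19, adjusted p = 0.0454) and 0.34. The difference in tetraspanin calls between genotypes was not tested, and the counts are not given without either DKO 24 h replicate.

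*Epcam* rose as a share of the RNA in wild-type cells, by more than any other member at 144 h in plain TPM. *Epcam* (ENSMUSG00000045394.8, chr17:87635979-87651106, plus strand) measured 47.6 and 71.1 plain TPM at 0 h, 59.9 and 83.9 after 24 h, 115 and 99.3 after 72 h and 141 and 141 after 144 h. The 24 h libraries overlapped 0 h and the 72 h and 144 h libraries lay above it. In the order over all groups WT 144 h and then WT 72 h stood apart from the rest, and the other 5 groups overlapped their neighbours. The difference from 0 h was 0.87 (SE 0.22) at 72 h (adjusted p = 0.0193) and 1.26 (SE 0.22) at 144 h (adjusted p = 0.003), the 98.7 percentile of all genes. The 144 h call held without any single library (at most 0.0251), whereas the 72 h call was lost without WT 0 h replicate 1 (0.135) or either WT 72 h replicate (0.099 and 0.0571).

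In spike-in normalized TPM *Epcam* measured 101 and 150.1 at 0 h, 190.3 and 148 after 72 h and 151 and 141 after 144 h in wild type, and the groups overlapped. The differences, 0.45 (SE 0.31) at 72 h and 0.24 (SE 0.31) at 144 h, did not pass (adjusted p = 0.386 and 0.518), and the 95% interval of the latter ran from −0.40 to 0.89. The 72 h value was 0.16 without WT 0 h replicate 1 and 0.73 without replicate 2, and the 144 h value was −0.045 without WT 0 h replicate 1 and 0.53 without replicate 2. Its 144 h value still lay 1.07 above the median of all genes, at the 96.3 percentile. In DKO, plain TPM were 56.4 and 56.2 at 0 h, 57.5 and 61.7 after 24 h and 58.8 and 89.7 after 72 h. The 72 h difference was 0.36 (SE 0.22) in plain TPM and 0.061 (SE 0.31) on the spike-in scale, neither called (adjusted p = 0.254 and 0.939), and leaving out replicate 2 or 1 of DKO 72 h took the plain value to 0.062 or 0.66. Both DKO 72 h libraries lay below both WT 72 h libraries in plain TPM, at −0.55 (SE 0.22) with adjusted p = 0.19 (−0.85 and −0.25 without replicate 2 and 1 of DKO 72 h), and overlapped them on the spike-in scale at −0.14 (SE 0.31). The response at 72 h in DKO minus wild type was −0.50 (SE 0.32) in plain TPM (95% interval −1.21 to 0.20) and −0.39 (SE 0.44) on the spike-in scale (−1.30 to 0.53), with adjusted p of 0.999 and 1. It ran from −0.80 without DKO 72 h replicate 2 to −0.20 without replicate 1 in plain TPM, and from −0.67 without WT 0 h replicate 2 to −0.098 without replicate 1 on the spike-in scale.

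A ratio of 2 genes within a library is free of the scale. *Alpl* to *Cd9* was 0.820 ± 0.185 (mean ± SD, n = 2) at 0 h in wild type, 0.485 ± 0.0567 at 24 h, 1.41 ± 0.0134 at 72 h and 1.44 ± 0.0171 at 144 h. In DKO it was 0.953 ± 0.0426, 1.12 ± 0.0850 and 1.68 ± 0.155 at 0, 24 and 72 h. The wild-type libraries were lowest at 24 h, the DKO libraries at 0 h, and those at 72 h stood above 1 in both genotypes. *Epcam* to *Cd9* went from 0.421 ± 0.0741 at 0 h through 0.412 ± 0.128 and 0.980 ± 0.109 to 1.17 ± 0.0141 at 144 h in wild type. In DKO it was 0.371 ± 0.00396 at 0 h, 0.514 ± 0.0472 after 24 h and 0.714 ± 0.247 after 72 h, where the replicates lay at 0.540 and 0.889. Both were below the WT 72 h libraries. Neither ratio was among those planned. Each pairs *Cd9* with a member that moved the other way in plain TPM by 72 h, so both are descriptions without a test.

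**Figure D4:**
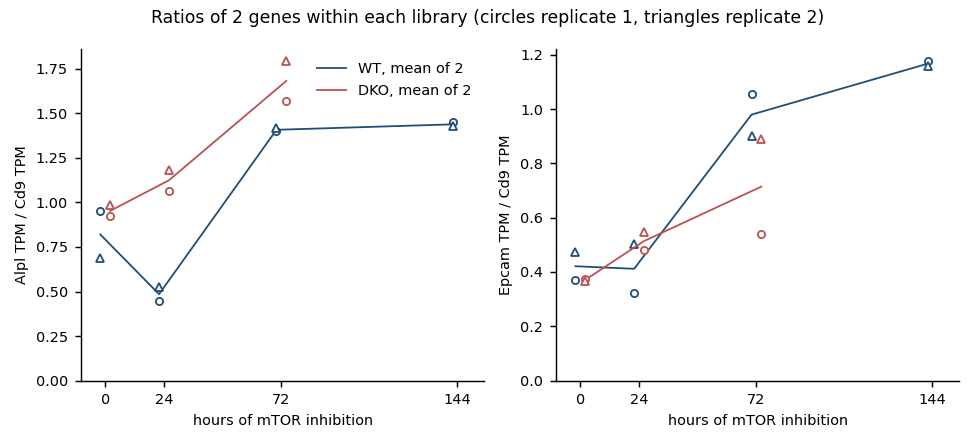
Ratio of *Alpl* to *Cd9* and of *Epcam* to *Cd9* within each library against hours of mTORi, linear axes from 0, circles for replicate 1, triangles for replicate 2 and lines through the mean of 2. *Alpl* to *Cd9* drops to 0.485 at 24 h in wild type and stands at 1.12 at 24 h in DKO, and *Epcam* to *Cd9* reaches 1.17 in wild type at 144 h.

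Of 10 tested relatives and partners of EPCAM, 4 were called higher and 0 lower at 144 h in plain TPM with a median of 0.58, beside 15.6% and 11.7% of all genes, but 0 higher and 4 lower on the spike-in scale with a median of −0.40, beside 50.5% of all genes called lower. *Spint2*, a membrane serine-protease inhibitor and the most abundant of the list, stood at 0.99 (SE 0.12, adjusted p = 0.000433) in plain TPM and −0.028 (SE 0.28, adjusted p = 0.938) on the spike-in scale. The metalloproteases that shed the EPCAM ectodomain were lower on the spike-in scale. *Adam10* stood at −1.31 (SE 0.30, adjusted p = 0.00221) and *Adam17* at −1.15 (SE 0.32, adjusted p = 0.00695) on the spike-in scale, and −0.33 and −0.14 in plain TPM, where neither was called. Over the mean of times in DKO against wild type, *Adam10* was higher at 0.78 (SE 0.17, adjusted p = 0.0112) and *Cldn4*, a tight-junction claudin, lower at −0.69 (SE 0.19, adjusted p = 0.0312), with 0.51 and −0.93 in plain TPM, both called there.

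*Cdh1* was the member with the highest median level in plain TPM and was not called in any of the 12 comparisons on either scale, though 144 h in wild type came close. *Cdh1* (ENSMUSG00000000303.12, chr8:106603351-106670246, plus strand) measured 133 and 174 plain TPM in wild type at 0 h, 143 and 163 after 24 h, 173 and 168 after 72 h and 208 and 189 after 144 h. In DKO it measured 157 and 148, 153 and 169.8 and 156 and 176 at the 3 times. All groups but WT 144 h overlapped their neighbours when ordered by level, and WT 144 h lay above WT 0 h. At 144 h the difference was 0.38 (SE 0.13) in plain TPM (adjusted p = 0.0511, 0.0404 with the replicate block). It was 0.18 without WT 0 h replicate 1 (adjusted p = 0.338) and 0.57 without replicate 2 (0.015). On the spike-in scale, where the libraries read 281 and 368 at 0 h and 222 and 189 after 144 h, it had the opposite sign, −0.65 (SE 0.28) (adjusted p = 0.0633, 0.0157 with the block, 0.0271 or 0.0272 without replicate 1 or 2 of DKO 24 h).

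*Cdh1* exceeded *Cdh2*, the N-cadherin gene, by a ratio of 72.5 to 178 in every library, with a median of 105. In the cadherin-catenin list 4 of 7 tested genes were called lower at 144 h on the spike-in scale with a median of −0.79, beside 50.5% of all genes, and 1 higher and 0 lower in plain TPM with a median of 0.23, beside 15.6% and 11.7% of all genes. β-catenin (*Ctnnb1*) stood at −0.97 (SE 0.27, adjusted p = 0.00721) and α-catenin (*Ctnna1*) at −0.99 (SE 0.26, adjusted p = 0.0053) on the spike-in scale, against 0.056 and 0.037 in plain TPM, close to the median of all genes. Of the transcription factors known to repress *Cdh1*, 3 of 6 were called lower on the spike-in scale and 1 in plain TPM, where the shares over all genes were the same 50.5% and 11.7%. *Zeb1* was lower on both, at −1.70 (SE 0.32, adjusted p = 0.000654) and −0.72 (SE 0.20, adjusted p = 0.0221), and *Snai1* only on the spike-in scale, at −0.89 (SE 0.35, adjusted p = 0.0398) against −0.028. Over the mean of times *Zeb1* was called higher in DKO, at 0.66 (SE 0.19, adjusted p = 0.0335) on the spike-in scale and 0.39 in plain TPM.

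*Pecam1* was highest at 24 h of mTORi in both genotypes when read as a share of the RNA. *Pecam1* (ENSMUSG00000020717.19, chr11:106654217-106750628, minus strand) measured 34.4 and 28.6 plain TPM in wild type at 0 h, 52.2 and 70.5 after 24 h, 29.8 and 37.7 after 72 h and 33.4 and 32.9 after 144 h. In DKO it measured 34.5 and 43.7 at 0 h, 72.0 and 59.6 after 24 h and 48.0 and 50.7 after 72 h. The 24 h libraries stood above 0 h in both genotypes, and the wild-type levels at 72 and 144 h overlapped those at 0 h. The 24 h difference was 0.93 (SE 0.17) in wild type (adjusted p = 0.0031, at most 0.0298 with any 1 library left out) and 0.74 (SE 0.17) in DKO (adjusted p = 0.0115, lost without replicate 1 of DKO 0 h, 0.0836, or of DKO 24 h, 0.0791). With spike-in normalization the differences were 0.57 (SE 0.33) and 0.18 (SE 0.33), neither called (adjusted p = 0.271 and 0.716). In wild type that value was 0.97 without WT 24 h replicate 1 and 0.17 without replicate 2. In DKO it was −0.31 without DKO 24 h replicate 1 and 0.68 without replicate 2. In the order of plain TPM the 24 h groups of both genotypes came first and overlapped each other, DKO 72 h followed apart from its neighbours, and the other 4 groups overlapped.

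At 144 h *Pecam1* measured 35.7 and 32.9 spike-in normalized TPM, against 72.6 and 60.5 at 0 h. Both libraries lay below 0 h, at −0.93 (SE 0.33) (adjusted p = 0.0245), while in plain TPM the libraries overlapped at 0.075 (SE 0.17) (adjusted p = 0.781, 0.20 without WT 0 h replicate 1 and −0.053 without replicate 2). The spike-in value was near the median of all genes, at the 42.4 percentile. Its call was lost without WT 0 h replicate 1 (0.125) or 2 (0.0631) and without WT 144 h replicate 1 (0.0748) or 2 (0.121), and also without the filter on low values (0.097), and held with the replicate block (0.00407).

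At 72 h both DKO libraries stood above both wild-type libraries on both scales for *Pecam1*, without passing the test. The difference was 0.96 (SE 0.33) on the spike-in scale (adjusted p = 0.159) and 0.54 (SE 0.17) in plain TPM (adjusted p = 0.108), and it passed on the spike-in scale without replicate 1 or 2 of DKO 24 h (0.0379 and 0.0382). Over the mean of times it was 0.59 (SE 0.19) (adjusted p = 0.056) and 0.32 (SE 0.10) (adjusted p = 0.0546), and the first passed without WT 24 h replicate 2 (0.0285), DKO 24 h replicate 2 (0.00262) or DKO 72 h replicate 2 (0.0349). The plain difference passed without WT 24 h replicate 2 (0.032), WT 72 h replicate 2 (0.0468), DKO 0 h replicate 1 (0.0439) or DKO 24 h replicate 2 (0.0452). Without DKO 24 h replicate 1 the spike-in value was 0.42, and without replicate 2 it was 0.75.

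*Pecam1* is also an endothelial gene, and the plain TPM summed over 10 endothelial markers was also highest at 24 h in each genotype. The sum was 26.0 to 36.3 in WT 0 h, 39.6 to 45.0 in WT 24 h, 25.3 to 28.3 in WT 72 h, 20.5 to 23.4 in WT 144 h, 32.8 to 36.9 in DKO 0 h, 43.5 to 52.7 in DKO 24 h and 27.0 to 30.5 in DKO 72 h. In spike-in normalized TPM the sums at 0 and 24 h overlapped, at 55.0 to 76.7 and 64.5 to 73.4 in wild type and 77.9 to 104 and 71.5 to 97.3 in DKO. The defining marker *Cdh5* lay between 0.14 and 2.89 plain TPM and *Emcn* between 0 and 0.02, and 5 of the 10 had a mean under 1. *Eng*, a TGF-β co-receptor and the most abundant, stood at −2.26 (SE 0.42, adjusted p = 0.000579) at 144 h on the spike-in scale and −1.27 (SE 0.29, adjusted p = 0.0103) in plain TPM, and 2 of 7 tested markers were called lower at 144 h on the spike-in scale, beside 50.5% of all genes, the second being the junction gene *Esam* at −1.24 (SE 0.39, adjusted p = 0.0142). The 8 primitive endoderm markers also moved with the 24 h results. Their summed plain TPM were 97.5 to 139.8 in WT 0 h and 542 to 686 in WT 24 h, against 101 to 129.6 and 189.8 to 207 in DKO. In wild type at 24 h 5 of 8 were called higher on the spike-in scale and 8 in plain TPM, with medians of 2.13 and 2.28, and in DKO 0 and 1, with 0 on the spike-in scale also at an unadjusted p under 0.05. Over all genes the shares called higher were 1.25% and 15.8% in wild type and 0.505% and 11.6% in DKO. The summed plain TPM of 8 trophectoderm markers were 51.0 to 71.3 in WT 0 h and 90.3 to 148 in WT 24 h, and 57.5 to 60.4 and 76.4 to 78.8 in DKO, with 0 of 6 tested called at 24 h on either scale and 2 in wild type and 0 in DKO at an unadjusted p under 0.05. Those of 7 neuroectoderm markers were 87.9 to 98.8 in WT 0 h, 34.0 to 36.6 in WT 24 h, 76.5 to 84.6 in DKO 0 h and 29.5 to 33.0 in DKO 24 h. Those of 7 mesendoderm markers were 4.66 to 5.64 in WT 0 h, 9.07 to 10.1 in WT 24 h, 5.07 to 5.08 in DKO 0 h and 5.64 to 6.55 in DKO 24 h, and those of 8 fibroblast markers were 9.75 to 10.9, 13.3 to 31.6, 16.0 to 19.9 and 10.8 to 17.4 in the same order. The part of these markers' cells in the 24 h values of *Alpl*, *Fut9*, *Cd9* and *Pecam1* was not tested. At 72 h the sums of the primitive endoderm markers were 75.7 to 129 in wild type and 88.6 to 101 in DKO, and by 144 h the wild-type sum was 46.2 to 54.7, below every WT 0 h library.

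**Figure D5:**
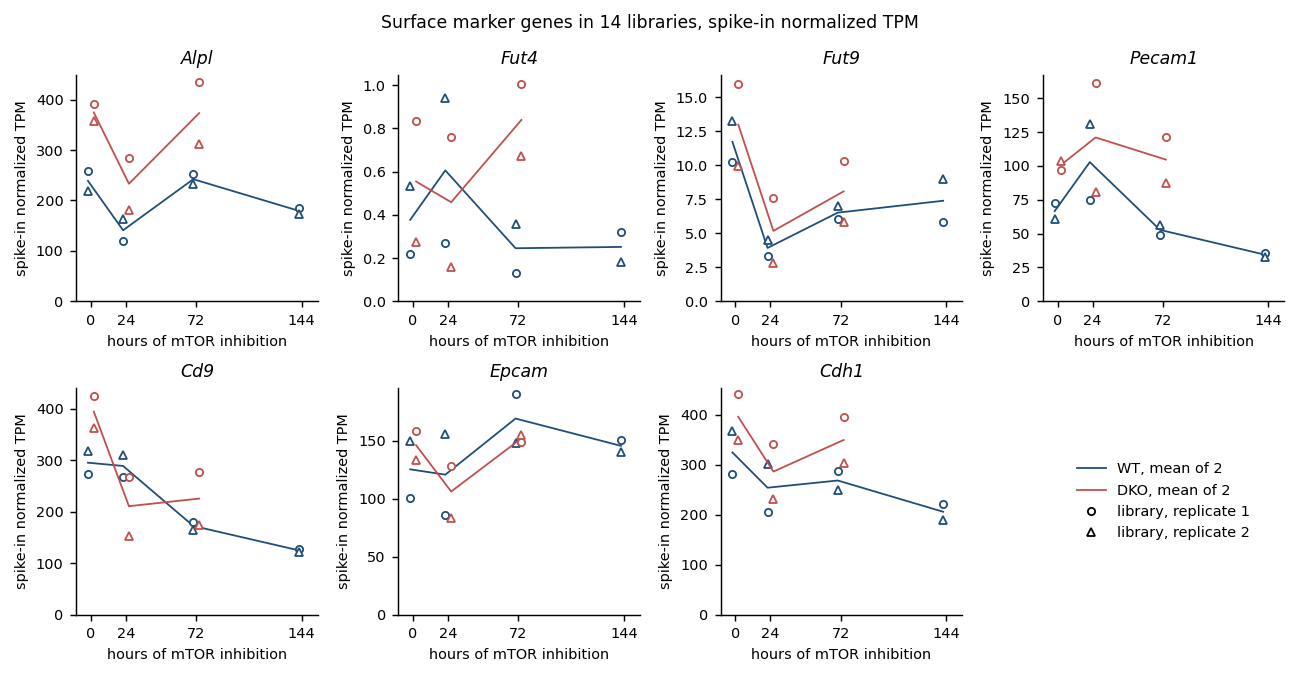
The same 7 genes in spike-in normalized TPM against hours of mTORi, 1 panel per gene with its own axis from 0. Circles mark replicate 1, triangles replicate 2, and lines run through the mean of 2. The scale also carries the amount of RNA per cell only if the spike-in was added per cell. *Cd9* goes from 273 and 317 at 0 h to 128 and 121 after 144 h in wild type, and the 2 libraries of DKO 24 h lie apart in all 6 tested genes, for example at 285 and 181 for *Alpl*.

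Other genes of the ES cell surface and of ES cell identity give the setting for these values. At 144 h 5 of 10 other surface markers were called lower on the spike-in scale, and 4 higher and 1 lower in plain TPM. The shares over all genes were 50.5% lower on the spike-in scale and 15.6% higher and 11.7% lower in plain TPM. The LIF receptor *Lifr*, the most abundant of them, stood at −0.95 (SE 0.28, adjusted p = 0.0109) and 0.070. *Cd38*, an NAD-consuming ectoenzyme, stood at −1.83 (SE 0.33, adjusted p = 0.000421) and −0.85 (SE 0.28, adjusted p = 0.0462), and *Cd24a*, a glycosylphosphatidylinositol-anchored sialoglycoprotein, at −1.37 (SE 0.32, adjusted p = 0.00257) and −0.37. Of 8 identity genes, with the same shares over all genes, 5 were called lower on the spike-in scale, and 2 higher and 1 lower in plain TPM. *Nanog* stood at −1.63 (SE 0.34, adjusted p = 0.00128) and −0.61 (SE 0.20, adjusted p = 0.0416), *Tfcp2l1* at −1.21 (SE 0.31, adjusted p = 0.00432) and −0.19, and *Dppa5a* at −0.34 (SE 0.33, adjusted p = 0.403) and 0.69 (SE 0.19, adjusted p = 0.0204). Over the mean of times 3 of 10 surface markers were higher in DKO on the spike-in scale, namely *Cd47* at 0.83 (SE 0.22, adjusted p = 0.0249), *Bst2* at 0.67 (SE 0.17, adjusted p = 0.0229) and *Lifr* at 0.54 (SE 0.16, adjusted p = 0.0452), and these were also called in plain TPM, beside 8.3% of all genes called higher on the spike-in scale and 11.7% in plain TPM.

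Between genotypes at single times, 0 members were called on the spike-in scale at 0, 24 or 72 h, with 1, 1 and 2 at an unadjusted p under 0.05 and 0.0439%, 0.0439% and 0.329% of all genes called. In plain TPM 0, 2 and 0 were called, against 0.598%, 1.37% and 4.01%. The difference of responses, DKO minus wild type, called 0 members at 24 h and 0 at 72 h on both scales, with 1 and 0 at an unadjusted p under 0.05 on each. It called 0.00548% of all genes at 24 h and 0% at 72 h on the spike-in scale, and 0% and 0% in plain TPM. On the spike-in scale limma left 181 of 18232 genes with an unadjusted p under 0.05 at 72 h. That is fewer than evenly spread p-values would give with no difference. The counts of 0 therefore do not show that the genotypes responded alike.

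Across the 14 libraries, which share the time course, the members did not follow one pattern in plain TPM. In log2(plain TPM + 1), *Epcam* and *Cdh1* had a Pearson r of 0.87, *Alpl* and *Cd9* of −0.81, and *Fut9* and *Pecam1* of −0.76. On the spike-in scale, where all genes share the factor of their library, the same pairs had r of 0.42, 0.41 and 0.033. There all pairs of members but *Epcam* and *Pecam1* (−0.13) had a positive r. *Cdh1* reached 0.81 with *Alpl* and 0.77 with *Cd9*. The genes whose plain TPM pattern was most like that of a member, among 9803 with a mean of at least 5, were *Cacnb1* (r = 0.948) and *Slc47a1* (0.939) for *Alpl*, *Rnf44* (0.959) and *Tagap1* (0.945) for *Epcam*, and *Atn1* (0.948) and *Tdrp* (0.945) for *Pecam1*. For *Cd9* they were *Txndc12* (0.912) and *Wwtr1* (0.902), for *Fut9* *AI506816* (0.924) and *Mgat4a* (0.914), for *Cdh1* *Rhbdf1* (0.938) and *Slc44a2* (0.905), and for *Fut4* *Tmem18* (0.884) and *Npc1* (0.864). The pairs of *Cd9* and *Pecam1* were also the most alike on the spike-in scale, and those of the other members differed there.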

How the data were processed

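RNA-seq was analysed for 14 libraries in 7 groups of 2. Per the labels and the study's methods, the authors trimmed reads with cutadapt 2.4, aligned them to mm10 with STAR and quantified TPM per gene with StringTie on GENCODE VM19. The submitters' processing notes name STAR 2.7.3a and StringTie 2.0, and the study's methods name later versions of both. The deposited TPM sum to 1000000 per library and hold 0 ERCC entries, and depth cannot be recovered from them. Each library was multiplied by 1 factor, the median ratio of the study's spike-in normalized table (its first 1999 rows were at hand) to the deposited TPM.

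Entries of a gene were summed. Values were tested on log2(TPM + 1) with limma 3.58.1 in R 4.3.3 (empirical Bayes with trend, all 14 libraries, no replicate block), on genes with a mean of at least 1, at a Benjamini-Hochberg adjusted p under 0.05, after a check on simulated data. The count test of the study could not be used on TPM. Replicate numbers pair libraries within a genotype, since the methods state that time points of a replicate were processed in parallel. Deviations from group means correlated between equal numbers at 0.22 to 0.34 in 3 of 3 DKO pairs and 0.062 to 0.40 in 6 of 6 wild-type pairs. Groups came from the labels, which do not say whether replicates were separate cultures. The study states that its experiments were repeated independently, without naming these libraries. Its caption on all RNA-seq samples gives 2 replicates for every experiment. The p-values measure the spread between these replicates. Besides the members, the 2 genes most like each were named. From each list the most abundant gene and the 2 with the largest called change at 144 h were picked. Up to 3 called between genotypes were added. Of these picks, *Pdgfra*, *Eomes* and *Gata4* are not described above. The members and lists were chosen with earlier results of these data known. Plain TPM, median centring, another pseudocount (0.1), filters, blocks and leaving out each library were tried as alternatives. Promoters are RefSeq entries matched by symbol for 4 of 7 members. Figures were drawn with matplotlib 3.10.9.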

Additional observations from a re-analysis of the deposited data

Results flagged for a closer look

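*Cd9* at 24 h of mTORi was higher than at 0 h in both wild-type libraries and lower in both DKO libraries in plain TPM, so the responses went opposite ways. The response in DKO minus that in wild type was −0.72 (SE 0.13), with an adjusted p of 0.326 by limma over all genes, so the difference did not pass the test. On the spike-in scale it was −0.92 (SE 0.41) with an adjusted p of 1.

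*Fut4* on the spike-in scale was higher at 72 h than at 0 h in both DKO replicates and lower in both wild-type replicates, each set against its own replicate number, at 1.01 and 0.673 against 0.836 and 0.272 in DKO and 0.132 and 0.359 against 0.220 and 0.534 in wild type. The difference of responses was 0.40 on the log2 scale in a fit without the filter, with an adjusted p of 1. *Fut4* was under 1.1 spike-in normalized TPM in every library.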

How the results depend on the processing

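Plain TPM and the spike-in scale gave opposite signs in 13 of the 30 differences of the 6 tested members from 0 h and in 27 of 72 over all 12 comparisons. Another set of 30 differences was followed through the alternatives, including some between genotypes and leaving out some from 0 h. Of these, 7 were opposite in plain TPM. They were *Alpl* 0.62, *Cdh1* 0.38, *Fut9* 0.30 and *Pecam1* 0.075 at 144 h in wild type. The others were *Cd9* 0.34 at 24 h in wild type, *Alpl* 0.28 at 72 h in DKO and *Cd9* −0.18 over the genotype mean. The numbers of members called were 4 at 24 h (29.9% of all genes) and 3 at 72 h (24%) in wild type, 2 at 72 h in DKO (26.3%), 2 between genotypes at 24 h (1.37%) and 2 over the mean (17.3%). Median centring likewise turned *Alpl* (0.43), *Cdh1* (0.19) and *Fut9* (0.22) at 144 h, *Cd9* at 24 h (0.24), *Alpl* at 72 h in DKO (0.072) and *Cd9* over the genotype mean (−0.23), and called 3 members at 24 h (30.7% of all genes) and 2 at 72 h (26.2%) in wild type, 1 at 72 h in DKO (28.1%), 2 between genotypes at 24 h (1.2%) and 2 over the mean (15.7%).

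With the replicate block within each genotype, 2 members were called at 24 h, 2 at 72 h and 4 at 144 h in wild type and 1 at 72 h in DKO, and the calls that changed and the shares of all genes stand beside their values. Equal replicate numbers correlated negatively between genotypes in 10 of 12 pairs, and a crossed block, chosen after seeing the data, called 2 at 24 h (24.1% of all genes) and 1 at 72 h (21.3%) in wild type, 1 at 72 h in DKO (14.2%), 1 between genotypes at 72 h (12.2%) and 2 over the mean (28.2%). A fit of the compared libraries alone called 2, 2 and 4 members at 24, 72 and 144 h in wild type (beside 22.7%, 28.7% and 69.3% of all genes), 3 between 72 and 144 h (50.3%), and 0 at 24 h in DKO (2.91%). Without a filter on low values 0 were called at 24 h in wild type (2.73%), 1 at 144 h (18.6%), 0 at 24 h in DKO (6.16%) and 0 over the genotype mean (1.88%). A mean of at least 5 called 2 over the genotype mean (12.9%), and a fit without trend 1 at 24 h in DKO (16.7%). The cause of these changes was not tested.

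Leaving out 1 library at a time, the counts on the spike-in scale ran from 0 to 2 at 24 h (1.96% to 19.8% of all genes), 0 to 1 at 72 h (0.367% to 18.8%) and 1 to 3 at 144 h (21.6% to 60.4%) in wild type, 0 to 4 at 24 h (4.43% to 48%) and 0 to 1 at 72 h (0.505% to 10.5%) in DKO, 0 to 1 between genotypes at 72 h (0% to 6.9%) and 0 to 3 over the mean (2.17% to 46.8%). In plain TPM, an alternative chosen after seeing the data, they ran from 1 to 4 at 24 h (18.5% to 31.5%) and 1 to 3 at 72 h (11.2% to 25.7%) in wild type, 1 to 2 at 24 h (14.7% to 24.5%) and 1 to 2 at 72 h (11% to 28.7%) in DKO, 0 to 2 between genotypes at 24 h (0.159% to 1.1%) and 1 to 3 over the mean (11.2% to 17.3%). On the spike-in scale the sign turned, none of them called, for *Alpl* at 72 h in wild type (−0.099 to 0.15) and in DKO (−0.26 to 0.21), *Cd9* at 24 h in wild type (−0.14 to 0.078) and over the mean (−0.047 to 0.22), *Epcam* at 144 h in wild type (−0.045 to 0.53), at 72 h in DKO (−0.063 to 0.19) and between genotypes at 72 h (−0.32 to 0.038), and *Pecam1* at 24 h in DKO (−0.31 to 0.68). In plain TPM it turned at 144 h for *Fut9* (−0.020 to 0.61) and *Pecam1* (−0.053 to 0.20). Plain TPM itself was planned to stand beside every result, and the late choice was leaving out libraries on that scale. With 1 library left in a group, that library is assumed to vary like the others. With depth unknown no counting error can be given, and *Fut4* was under the filter on low values.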

Other observations

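Markers of other lineages give further context for the surface genes, as values with no explanation. Of 5 tested neuroectoderm markers, 3 were called lower at 24 h in wild type and 3 in DKO on the spike-in scale, and 3 and 2 in plain TPM, beside 8.73%, 18.7%, 14.1% and 13.3% of all genes. At 144 h *Nes*, a neural filament gene, stood at −1.997 (SE 0.33, adjusted p = 0.000242) on the spike-in scale and −1.03 (SE 0.18, adjusted p = 0.00238) in plain TPM, and *Tubb3*, a neuronal tubulin, at −1.59 (SE 0.31, adjusted p = 0.000856) and −0.57 (SE 0.14, adjusted p = 0.0162). *Pax6*, a neural transcription factor, was lower in DKO over the mean of times, at −1.12 (SE 0.25, adjusted p = 0.00991) and −1.12 (SE 0.16, adjusted p = 0.002). Of 6 trophectoderm markers 4 were called lower at 144 h on the spike-in scale, and 1 lower and 1 higher in plain TPM, beside 50.5%, 11.7% and 15.6% of all genes. *Gata3*, a trophoblast transcription factor, stood at −2.38 (SE 0.35, adjusted p = 0.000113) and −1.46 (SE 0.32, adjusted p = 0.00793). *Krt8*, a simple-epithelium keratin, stood at −2.28 (SE 0.41, adjusted p = 0.000471) and −1.31 (SE 0.56, adjusted p = 0.106), while *Tfap2c*, the most abundant, stood at −1.86 (SE 0.73, adjusted p = 0.0391) and −0.86 (SE 0.75, adjusted p = 0.421).

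Of the primitive endoderm markers the basement-membrane collagen *Col4a1* stood at −3.05 (SE 0.28, adjusted p = 1.27e-06) at 144 h on the spike-in scale and −2.04 (SE 0.28, adjusted p = 0.000826) in plain TPM. The laminin gene *Lama1*, the most abundant, was lower in DKO over the mean of times, at −0.70 (SE 0.20, adjusted p = 0.0339) and −0.96 (SE 0.15, adjusted p = 0.00266). Of 3 tested mesendoderm markers 1 was called lower at 144 h on the spike-in scale, *Foxa2* at −1.14 (SE 0.36, adjusted p = 0.0145), which was not called in plain TPM (−0.59), beside 50.5% of all genes called lower on the spike-in scale. Most fibroblast markers were near absent, with 6 of 8 under a mean of 1 and 2 tested. *Thy1*, a surface glycoprotein gene of fibroblasts and neurons, was higher in DKO over the mean of times, at 1.14 (SE 0.22, adjusted p = 0.0044) and 0.83 (SE 0.24, adjusted p = 0.0413), and stood at −1.23 (SE 0.38, adjusted p = 0.0131) at 144 h in wild type on the spike-in scale.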
